A study of Rattus norvegicus with 6 samples.

Results

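The cytochrome P450 3A (Cyp3a) family of rat liver was measured by 4 probe sets, 1 each for Cyp3a23-3a1, Cyp3a2, Cyp3a18 and Cyp3a9, out of 31042 probe sets of genes on the array. They were taken as all probe sets whose annotated gene symbol begins with Cyp3a, whatever their signal, and none of the 4 carried several symbols. None of the 4 passed the test for a difference between treated and control livers. Liver RNA of 6 male rats of the strain BrlHan:WIST@Jcl(GALAS) was hybridised to 1-colour Affymetrix arrays, 1 array per animal. In the momfluorothrin group, 3 rats ate a powdered diet containing epsilon-momfluorothrin, a pyrethroid insecticide, for 2 weeks, and in the control group 3 rats ate the diet without it for the same time. The dietary level is given as 3000 ppm in the sample titles and treatment protocol and as 5000 ppm in the other labels, so it is not settled here. Rats of both groups were 4 weeks old when purchased, passed a quarantine of 1 week and were sampled at an age of 7 weeks. The values are probe set signals in linear units of the MAS5 algorithm, and the number of arrays limits their precision.

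Cyp3a enzymes are heme proteins of the endoplasmic reticulum that oxidise steroids, bile acids and a large share of drugs. Their transcription is the textbook readout of the pregnane X receptor (PXR, encoded by Nr1i2), a nuclear receptor that binds foreign compounds and steroids, pairs with the retinoid X receptor and attaches to repeated hexamer sites in the promoters of its targets. In rat liver Cyp3a23-3a1 is the member classically induced by dexamethasone and other PXR ligands, Cyp3a2 and Cyp3a18 are expressed mainly in adult males, and Cyp3a9 is expressed more in females.

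The promoters of the 4 measured genes are shown because hexamer sites of this kind are where PXR is known to act in this family. All 4 were matched in RefSeq (build GRCr8), each as 250 bases before and 50 after the annotated start, 5′ to 3′ along the gene's strand. Capitals mark the hexamer sites TGAACT and AGGTCA, found on either strand. The windows are chr12:14398754-14399053 on the minus strand for Cyp3a23-3a1, chr12:14343808-14344107 on the minus strand for Cyp3a2, chr12:13994062-13994361 on the plus strand for Cyp3a18 and chr12:21960111-21960410 on the minus strand for Cyp3a9.
Cyp3a23-3a1: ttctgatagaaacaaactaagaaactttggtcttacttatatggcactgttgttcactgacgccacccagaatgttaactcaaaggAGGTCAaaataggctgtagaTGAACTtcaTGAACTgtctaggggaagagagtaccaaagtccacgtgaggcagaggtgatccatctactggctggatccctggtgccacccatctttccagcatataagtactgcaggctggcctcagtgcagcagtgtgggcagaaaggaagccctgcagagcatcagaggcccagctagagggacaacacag
Cyp3a2: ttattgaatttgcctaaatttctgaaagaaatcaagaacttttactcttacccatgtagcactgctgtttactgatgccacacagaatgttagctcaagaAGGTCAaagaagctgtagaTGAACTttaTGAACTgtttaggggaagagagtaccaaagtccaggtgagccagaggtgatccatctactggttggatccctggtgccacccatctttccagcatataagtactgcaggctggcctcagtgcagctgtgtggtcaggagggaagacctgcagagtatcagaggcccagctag
Cyp3a18: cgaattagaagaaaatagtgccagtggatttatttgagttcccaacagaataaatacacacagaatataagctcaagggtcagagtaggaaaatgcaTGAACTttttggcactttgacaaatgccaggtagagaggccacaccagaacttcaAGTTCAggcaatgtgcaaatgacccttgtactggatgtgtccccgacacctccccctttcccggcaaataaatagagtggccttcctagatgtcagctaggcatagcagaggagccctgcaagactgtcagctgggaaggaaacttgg
Cyp3a9: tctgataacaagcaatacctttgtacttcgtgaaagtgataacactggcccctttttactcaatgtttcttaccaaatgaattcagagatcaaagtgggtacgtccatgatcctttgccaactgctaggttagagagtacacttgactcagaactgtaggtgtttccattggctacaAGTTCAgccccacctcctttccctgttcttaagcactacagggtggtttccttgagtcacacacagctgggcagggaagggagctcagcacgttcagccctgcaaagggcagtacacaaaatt
The pair of TGAACT hexamer sites that stand 3 bases apart in Cyp3a23-3a1 and in Cyp3a2 forms a direct repeat, TGAACTNNNTGAACT. It begins 144 bases before the annotated start of Cyp3a23-3a1 and 131 bases before that of Cyp3a2. Of 27457 rat promoters of the same length, 1 per gene and read on both strands, 2 (0.00728%) held this repeat, and they were those of Cyp3a23-3a1 and Cyp3a2. Each of these promoters also held 1 AGGTCA upstream of the repeat. Cyp3a18 held 2 single TGAACT hexamer sites, 1 on each strand, and Cyp3a9 held 1, while 14.4% of all promoters held at least 1 such hexamer site and 15.7% at least 1 AGGTCA. The everted repeat TGAACTNNNNNNAGTTCA was in no promoter of the set, and the direct repeat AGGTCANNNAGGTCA was in 5 (0.0182%), none of them a Cyp3a promoter shown here. These repeats contain the single hexamer sites, so the counts overlap. Each repeat was searched in 1 spelling only, and everted repeats that join TGAACT to AGGTCA were not searched for. The absence of the everted repeat therefore covers only the spelling given. A match of letters is a description and not a measured binding site. In a global alignment the Cyp3a23-3a1 and Cyp3a2 promoters were 80.6% identical, gaps counted, against 54.2% to 58.7% for the other 5 pairs. The rat gene table lists 8 Cyp3a genes on chromosome 12. The other 4, Cyp3a73, Cyp3a2l1, Cyp3a71-ps and Cyp3a62, were annotated to no probe set here. Close family members may contribute to each other's signals, and cross-hybridisation was not tested.

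The question for the family was whether its transcripts differed between rats fed the insecticide and rats fed the plain diet. In the fit over 15778 probe sets, 27 passed the threshold of 0.05 on the adjusted p of limma, 0.171% of those tested, and the groups did not overlap for 17.8%, with the momfluorothrin animals lower for 10.4%. All 4 Cyp3a probe sets passed the filter on low signals, 0 of them passed the threshold, 1 had an unadjusted p under 0.05 (against 11.6% of all probe sets tested), and the groups did not overlap for 1. Array medians were 23.1 to 26.5 in momfluorothrin livers and 27.04 to 29.37 in control livers, although the trimmed mean computed from the deposited values was about 100 on every array. The hepatocyte markers measured (Alb, Apoa1, Ttr, Serpina1 and Cps1; 5 of 5) were above the array median on all 6 arrays, with a summed signal of 37767 to 42152 in momfluorothrin and 42129 to 48182 in control livers. The part of this in the Cyp3a values was not tested. Among enterocyte markers, listed because Cyp3a enzymes are also made in the gut, Vil1, Alpi and Cdx1 were above the array median on no array. Fabp2 was above it on 3 arrays, with a mean signal of 13.1 in momfluorothrin and 38.6 in control livers, and Apoa4 on all 6. The summed signal of the 5 measured enterocyte markers was 1408 to 1745 in momfluorothrin and 3234 to 4049 in control livers, most of it from Apoa4, which rat hepatocytes also make. Summed markers of Kupffer cells (660 to 729 in momfluorothrin, 699.8 to 896 in control), endothelial cells (1986 to 2115 and 1761 to 2030) and stellate cells (389 to 471 and 378 to 514) overlapped between the groups, in the same order. Those of cholangiocytes did not (143 to 167 in momfluorothrin and 87.6 to 111 in control). Most of the cholangiocyte sum came from Epcam (mean 126 in momfluorothrin and 81.8 in control). Krt19 was above the array median on 2 arrays and Krt7 on no array. In whole liver, fewer cells of a type and less RNA per cell cannot be told apart.

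Cyp3a23-3a1, the gene classically induced through PXR in the rat, had signals of 6864, 6720 and 5718 in momfluorothrin replicates 1, 2 and 3, against 7596, 8521 and 5835 in control replicates 1, 2 and 3. The groups overlapped, because control replicate 3 lay below momfluorothrin replicates 1 and 2. The log2 difference was -0.17 ± 0.14 (SE, n = 3 each, adjusted p = 0.657 in limma), with a 95% interval of 0.717-fold to 1.10-fold. The exact permutation test gave p = 0.4, 2-sided, where 3 against 3 allows none below 0.1. At the unadjusted p of the weakest call in this fit (7.76e-05), a log2 difference of 0.93 would have been needed for this probe set to pass.

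Cyp3a2, a steroid hydroxylase of the male liver, had signals of 6200, 6724 and 6698 in momfluorothrin replicates 1, 2 and 3, against 7207, 7713 and 7033 in control replicates 1, 2 and 3. Every momfluorothrin animal lay below every control animal. The log2 difference was -0.16 ± 0.07 (SE, n = 3 each), which did not pass (unadjusted p = 0.0439, adjusted p = 0.425 in limma, exact permutation p = 0.1, the smallest this design allows). The 95% interval was 0.802-fold to 0.996-fold. The separation of the groups was lost both with each array centred on its median (log2 difference 0.01 ± 0.12, 0.844-fold to 1.20-fold) and with quantile normalization (-0.02 ± 0.06, 0.900-fold to 1.08-fold). Cyp3a2 varied least of the 4. Its SD was 4.52% of the mean in momfluorothrin and 4.82% in control livers (n = 3 each), and the residual SD of its log2 signal was at the 5.58th percentile of the kept probe sets.

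Cyp3a18, a further male-predominant member, had signals of 5936, 6418 and 4251 in momfluorothrin replicates 1, 2 and 3, against 6440, 6844 and 5868 in control replicates 1, 2 and 3. Momfluorothrin replicate 3 was the lowest of the 6 animals, and the other momfluorothrin animals lay within the control range. The log2 difference was -0.23 ± 0.14 (SE, n = 3 each, adjusted p = 0.578 in limma, exact permutation p = 0.4), with a 95% interval of 0.684-fold to 1.07-fold. Without momfluorothrin replicate 3 the log2 difference was -0.05 (adjusted p = 0.933 in limma).

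Cyp3a9, the female-predominant member, had signals of 1541, 1106 and 1412 in momfluorothrin replicates 1, 2 and 3, against 1296, 718 and 2435 in control replicates 1, 2 and 3. The control animals held both the lowest and the highest value, 3.39-fold apart, while the momfluorothrin animals were within 1.39-fold. The SD was 16.5% of the mean in momfluorothrin and 58.9% in control livers (n = 3 each), and the residual SD of its log2 signal was at the 97.1st percentile of the kept probe sets. The log2 difference was 0.03 ± 0.36 (SE, n = 3 each, adjusted p = 0.982 in limma, exact permutation p = 1), and the 95% interval of 0.578-fold to 1.80-fold was the widest of the 4. It was -0.41 without control replicate 2 and 0.47 without control replicate 3. A log2 difference of 2.49 would have been needed for this probe set to pass, against 0.47 for Cyp3a2 and 0.98 for Cyp3a18.

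**Figure D1:**
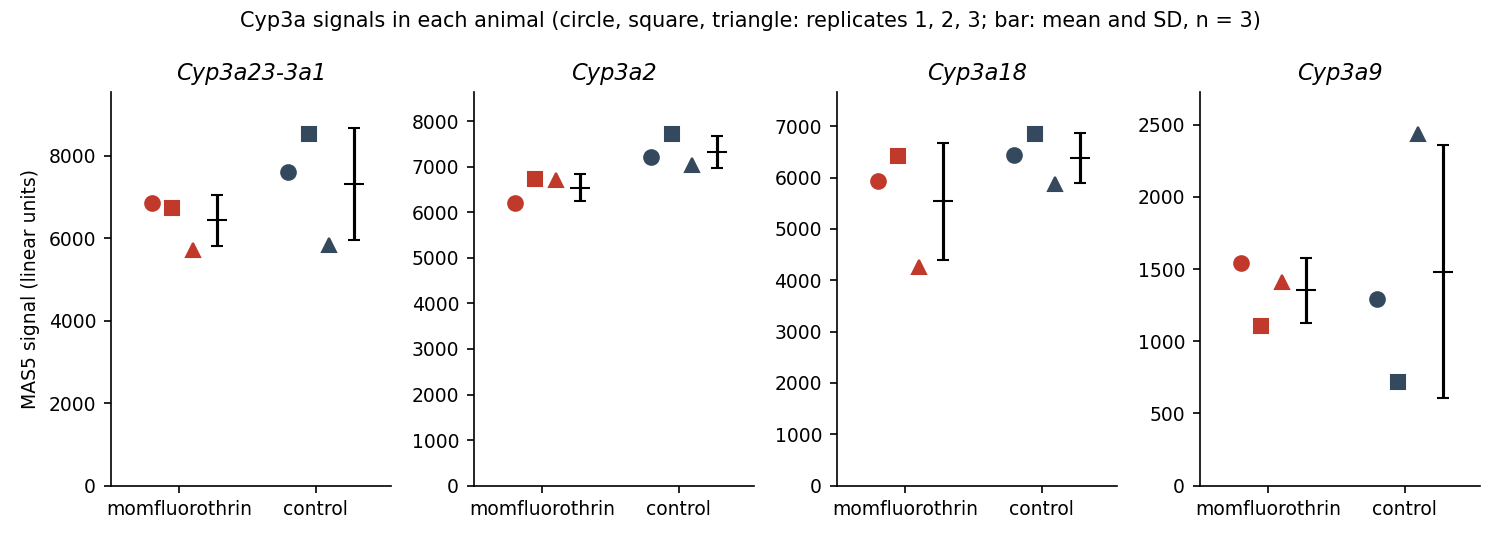
MAS5 signal (linear units, axes from 0) of each Cyp3a probe set in 3 momfluorothrin and 3 control animals, with replicates 1, 2 and 3 as circle, square and triangle and the mean and SD beside them. The groups are apart only for Cyp3a2, and Cyp3a9 ranges from 718 to 2435 within the control animals.

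The sizes of the differences, and for 2 members the sign, moved with the scaling of the arrays. Centring each array on its median moved the median log2 difference of all 9200 genes by 0.17, from -0.01 to 0.16. On that scale Cyp3a2, given above, and Cyp3a23-3a1, at 0.00 ± 0.15, no longer had a negative value but lay below the median gene. Cyp3a18 was at -0.05 ± 0.13 and Cyp3a9 at 0.20 ± 0.33 (SE, n = 3 each). Quantile normalization moved the median of all genes by 0.02 and kept all 4 signs. With it Cyp3a23-3a1 was at -0.04 ± 0.13, Cyp3a18 at -0.15 ± 0.16 and Cyp3a9 at 0.00 ± 0.36. Over the 3 scalings the upper end of the 95% interval was at most 1.25-fold for Cyp3a23-3a1, 1.20-fold for Cyp3a2, 1.18-fold for Cyp3a18 and 1.91-fold for Cyp3a9, and no member passed the threshold.

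**Figure D2:**
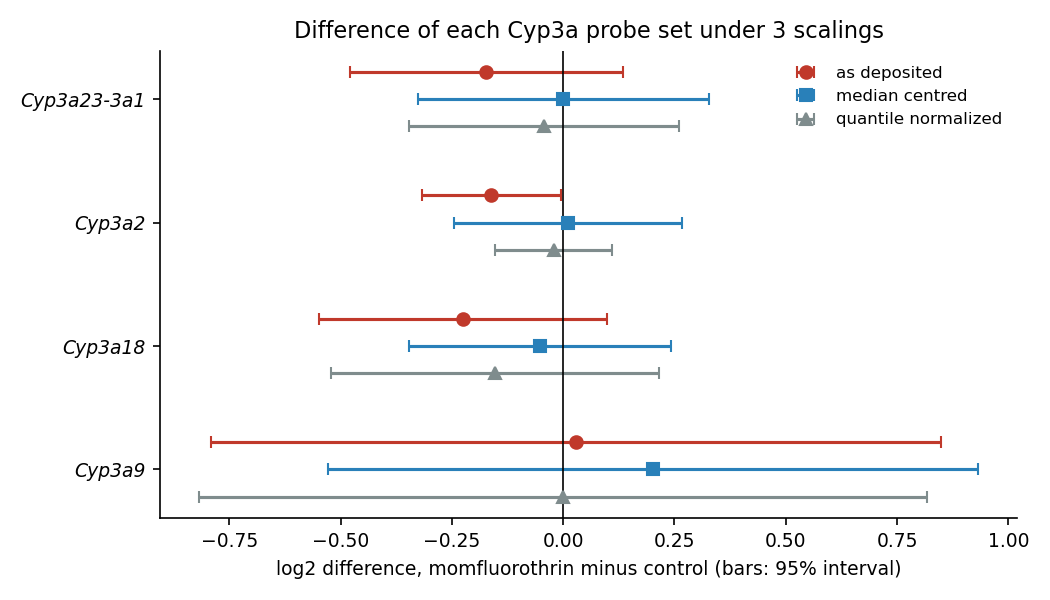
Log2 difference, momfluorothrin minus control, of each Cyp3a probe set on the deposited scale, after median centring and after quantile normalization, with 95% intervals from limma (n = 3 each). The intervals of 3 of the probe sets end at 1.25-fold or lower on every scale, that of Cyp3a9 is the widest, and only that of Cyp3a2 on the deposited scale lies below 0, ending at 0.996-fold.

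Cyp3a23-3a1, Cyp3a2 and Cyp3a18 were among the brightest probe sets of the array, above at least 99.4% of all probe sets in every animal, and Cyp3a9 was above at least 95.6%. The brightest probe set of each array was 1.75 to 2.47 times the Cyp3a23-3a1 signal, 1.89 to 2.05 times that of Cyp3a2 and 1.99 to 3.00 times that of Cyp3a18, but 5.91 to 21.0 times that of Cyp3a9. On the deposited scale, 77.4% of the 195 kept probe sets with a mean signal of at least 4000 were lower in momfluorothrin livers. Their median log2 difference was -0.09, 80% of them lay between -0.21 and 0.08, and groups did not overlap in 34.9%. These shares and this range were not computed on the other scales. The values of Cyp3a2 and Cyp3a23-3a1 lay inside that range and that of Cyp3a18 just below it. Whether signals near the top of the scale were compressed was not tested. Of the 195 probe sets, 1 passed (0.513%), that of Gstm1, a glutathione transferase. Gstm1 had 8200, 7431 and 7474 in momfluorothrin and 4965, 4867 and 4524 in control replicates 1, 2 and 3 (1.61-fold, adjusted p = 0.0109 in limma). Its control mean of 4785 was below those of Cyp3a23-3a1 (7317), Cyp3a2 (7318) and Cyp3a18 (6384). Gstm1 no longer passed without momfluorothrin replicate 2 (adjusted p = 0.0717), without momfluorothrin replicate 3 (0.0525) and in eBayes without an intensity trend (0.163).

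The differences of the family members from each other were tested as the change, momfluorothrin minus control, in the within-animal log2 difference of 2 probe sets, over all 6 pairs. Cyp3a23-3a1 minus Cyp3a2 changed by -0.01 ± 0.17 on the log2 scale, Cyp3a23-3a1 minus Cyp3a18 by 0.05 ± 0.14 and Cyp3a2 minus Cyp3a18 by 0.06 ± 0.20 (SE, n = 3 each). The pairs with Cyp3a9 had values of -0.20 ± 0.69 against Cyp3a23-3a1, -0.19 ± 0.57 against Cyp3a2 and -0.25 ± 0.64 against Cyp3a18, each with Cyp3a9 subtracted. The exact permutation p was 0.7 to 1 for the 6 pairs and 1 for each after Benjamini-Hochberg adjustment, and no p below 0.1 was possible. This test could not pass at 0.05, so whether the members responded unequally is not settled by it.

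Across the 6 animals the log2 profiles of the 3 bright members lay nearer to each other than to that of Cyp3a9. The root mean square difference between their log2 profiles, each centred on its own mean over the 6 arrays, was 0.15 for Cyp3a23-3a1 and Cyp3a18, 0.17 for Cyp3a23-3a1 and Cyp3a2 and 0.20 for Cyp3a2 and Cyp3a18. With Cyp3a9 it was 0.58 to 0.70. The measure is not scaled to the spread of each gene, and Cyp3a9 ranged over 1.76 log2 units, against 0.31 to 0.69 for the others. It therefore cannot show whether the members rose and fell together. Control replicate 2 was the highest animal for all 3 bright members and the lowest for Cyp3a9. Momfluorothrin replicate 3 was the lowest for Cyp3a23-3a1 and Cyp3a18 but not for Cyp3a2, where momfluorothrin replicate 1 was lowest.

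**Figure D3:**
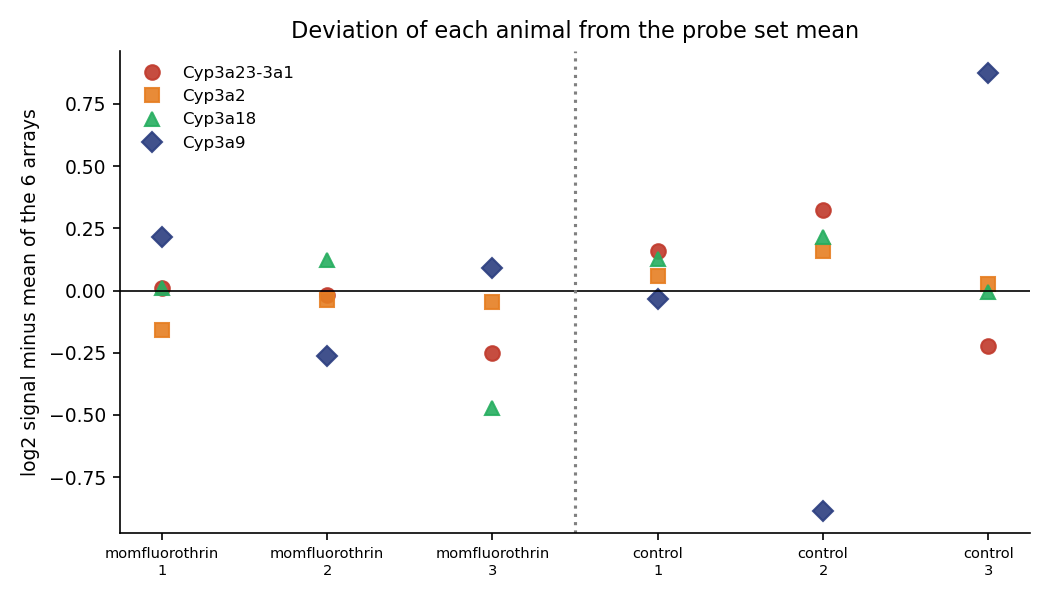
Log2 signal of each Cyp3a probe set in each animal minus its mean over the 6 arrays, with momfluorothrin animals left of the dotted line and control animals right of it. Cyp3a9 deviates most, from -0.89 in control replicate 2 to 0.88 in control replicate 3, and the other members stay between -0.47 and 0.32.

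By the same measure, taken over all kept probe sets with 1 gene symbol, the profiles nearest to Cyp3a23-3a1 were those of Klhl18 (0.023), Slc25a22, a mitochondrial glutamate carrier (0.040), and Faf2 (0.049). Nearest to Cyp3a2 were Cd164 (0.016), Vtn, the plasma protein vitronectin (0.019), and Sumo3 (0.022). Nearest to Cyp3a18 were Pde3b, a phosphodiesterase (0.048), Prkd2 (0.053) and Kidins220 (0.056). For Cyp3a9 they were the interferon regulatory factor genes Irf7 (0.18) and Irf9 (0.20), followed by Cybrd1, a ferric reductase (0.21). Irf7 had signals of 93.0, 57.6 and 102 in momfluorothrin replicates 1, 2 and 3, against 95.8, 49.1 and 140 in control replicates 1, 2 and 3. As with Cyp3a9, the highest and lowest animals were control replicates 3 and 2. These are the closest among 12267 kept probe sets with 1 symbol over 6 arrays and are a description only.

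The receptors that control the family were measured on the same arrays. Nr1i2, which encodes PXR, had signals of 504, 483 and 613 in momfluorothrin and 448, 576 and 471 in control replicates 1, 2 and 3, and the groups overlapped (log2 0.10 ± 0.13, SE, n = 3 each, adjusted p = 0.798 in limma). Nr1i3, which encodes the related receptor CAR, had 350, 359 and 405 in momfluorothrin and 308, 344 and 249 in control replicates 1, 2 and 3. Its groups did not overlap, as for 18.3% of all genes tested, but it did not pass (log2 0.32 ± 0.13, adjusted p = 0.421 in limma). Their shared partner Rxra stood at 0.18 ± 0.11 on the log2 scale (adjusted p = 0.563 in limma). Of 10 tested receptors and partners none passed (percent called over all 9200 genes 0.217), with a median log2 difference of 0.09 against -0.01 over all genes. Nr0b2, which encodes the repressor SHP, had the smallest p of the list, at 584, 1072 and 615 in momfluorothrin and 338, 494 and 205 in control replicates 1, 2 and 3 (log2 1.16 ± 0.32, adjusted p = 0.241 in limma). Ncor1, a corepressor, was at -0.12 ± 0.13. The groups did not overlap for 3 of the 10 (Nr1i3, Rxra and Nr0b2, all higher), against 18.3% of all genes tested. Among 11 tested liver transcription factors of Cyp3a genes none passed (median -0.09). The smallest p belonged to Foxa3 (-0.41 ± 0.13), Cebpb (0.81 ± 0.27), Onecut1 (-0.85 ± 0.38) and Cebpa (0.21 ± 0.10, adjusted p of at least 0.292 for these 4 in limma).

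Cytochrome P450 enzymes of the endoplasmic reticulum draw electrons from NADPH-cytochrome P450 reductase, encoded by Por, and from cytochrome b5, encoded by Cyb5a. None of the 6 tested genes of this group passed, where 0.217% of all 9200 genes did (median log2 difference of the group 0.08). Por had signals of 765, 949 and 801 in momfluorothrin and 943, 1131 and 461 in control replicates 1, 2 and 3, with overlapping groups (log2 0.08 ± 0.28). A further Por probe set was at 0.13. The groups did not overlap for Cyb5r3, the cytochrome b5 reductase (0.20 ± 0.07), and Cyb5a (0.09 ± 0.06), both higher, and for Pgrmc2 (-0.25 ± 0.10), which was lower, against 18.3% of all genes tested. Pgrmc1, a heme-binding partner of P450 enzymes, was at 0.08 ± 0.07 (adjusted p of at least 0.378 for the whole group in limma).

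Some other genes known as PXR or CAR targets rose in these same livers and others did not. Of 17 tested genes of a list of 23, 7 rose and none fell, with a median log2 difference of 0.69 (0.196% of all genes tested rose). The list was drawn up with earlier results of these data known, so its count is not independent evidence. Ces2c, a carboxylesterase, had 976, 1008 and 1081 in momfluorothrin and 243, 306 and 240 in control replicates 1, 2 and 3 (log2 1.97 ± 0.11, SE, n = 3 each, adjusted p = 0.000591 in limma). The others that rose were Gstm1, given above, Akr7a3, an aldo-keto reductase (1.94 ± 0.15), Ugt2b1, a glucuronosyltransferase (1.64 ± 0.13), Aldh1a1, a retinaldehyde dehydrogenase (1.27 ± 0.15), Ephx1, the microsomal epoxide hydrolase (1.06 ± 0.11) and the efflux pump Abcc3. Abcc3 was below the array median in every control liver, so it passed the filter on low signals only through the 3 momfluorothrin arrays. Its rise is given as at least 3.94-fold against the array medians. The adjusted p in limma for the measured signals, 0.000861, and its place among the 7 therefore depend on the group where it is high. In limma without the filter the adjusted p was 0.000425. The fitted log2 difference rests on control signals of about 3, at 5.23 as measured and 2.75 with a pseudocount of 16, and the call was lost without momfluorothrin replicate 2 (adjusted p = 0.0593). Without momfluorothrin replicate 2 the count of listed genes called higher was 3, without momfluorothrin replicate 3 it was 4, and with a variance model without an intensity trend it was 2. Ces2c, Akr7a3 and Ugt2b1 passed whichever array was left out, Aldh1a1 was lost without any 1 of the momfluorothrin replicates, and Ephx1 was lost without momfluorothrin replicate 2 or 3. Among the 10 that did not pass, Cd36, a fatty acid transporter, was at 1.01 ± 0.21 (adjusted p = 0.141), Insig1 at 0.85 ± 0.34 and Alas1, the first enzyme of heme synthesis, at 0.45 ± 0.37. Cyp2c7 was at -0.19 ± 0.07 and Por is given above. The rest, named after their values were seen, were Abcb1a (0.21 ± 0.20), Thrsp (0.15 ± 0.21), Abcc2 (0.07 ± 0.18), Slco1a4 (-0.00114 ± 0.13) and Cyp2c6v1 (-0.04 ± 0.06). Cyp2b1 and Cyp2b2 had no probe set of their own.

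**Figure D4:**
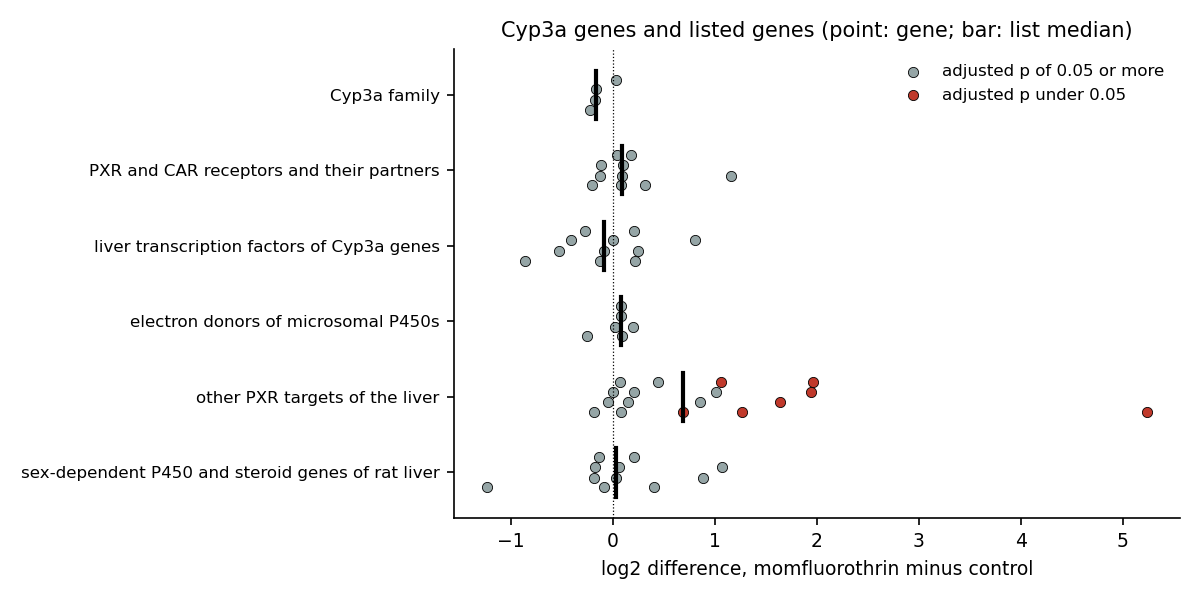
Log2 difference, momfluorothrin minus control, of the 4 Cyp3a genes and of the genes of 5 lists (a point per gene, a bar at each median, red where the adjusted p in limma was under 0.05). Red points appear only in the list labelled other PXR targets, where 7 of 17 rose, against 0.196% of all genes tested. That list holds genes known as PXR or CAR targets and was drawn up with earlier results of these data known. The point farthest right is Abcc3, whose control signals were below the array median.

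Since 3 of the Cyp3a genes differ between the sexes in rat liver, sex-dependent genes were listed beside them. None of 11 tested passed, where 0.217% of all 9200 genes did (median log2 difference of the list 0.03). Prlr, the prolactin receptor, was at 1.07 ± 0.22, Obp3, a protein of the male liver, at -1.23 ± 0.31, and Akr1d1, a steroid reductase, at 0.41 ± 0.12 (adjusted p of at least 0.136 in limma). In this list the groups did not overlap for 2 higher genes, Prlr and Akr1d1, and for 3 lower ones, against 18.3% of all genes tested. Those of Obp3 overlapped. The male-specific Cyp2c11 and Cyp2c13, named after their values were seen, had log2 differences of -0.14 ± 0.07 and -0.17 ± 0.06, with non-overlapping groups as for Cyp3a2. The female-predominant Cyp2c7, given above, was likewise lower with non-overlapping groups, while the groups of the male Cyp2a2 overlapped at 0.03 ± 0.08. These values are on the deposited scale. Cyp2c7 was at -0.07 with quantile normalization and -0.01 with median centring, and Cyp2c11, Cyp2c13 and Cyp2a2 are not given on those scales. Groups did not overlap for 34.9% of all probe sets with a mean signal of at least 4000, Cyp2c11, Cyp2c13 and Cyp2c7 among them. The female-specific Cyp2c12, also named after its values were seen, had 383, 367 and 466 in momfluorothrin and 168, 125 and 498 in control replicates 1, 2 and 3 (log2 0.88 ± 0.42, adjusted p = 0.468 in limma). As with Cyp3a9, control replicate 3 was the highest and control replicate 2 the lowest of the 6 animals.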

How the data were processed

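Per the submitters' processing notes, the authors used MAS5 to make the deposited intensities, which are linear probe set signals (version and settings not given in the sources used here). The trimmed mean was equal on all arrays, and no further normalization was applied. Of 31099 probe sets, 57 array controls were left out, and those above the array median on at least 3 of 6 arrays were kept (15778). Gene names are those of GEO's platform annotation (20826 probe sets with 1 symbol, 436 with several, 9780 with none), checked by gene ID against a GRCr8 gene table. Where a gene had several kept probe sets, the brightest by mean log2 signal stood for it.

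Log2 signals without a pseudocount were tested 2-sided in R 4.3.3 with limma 3.58.1, using lmFit and trended eBayes, and p-values were adjusted by Benjamini-Hochberg across the 15778. All adjusted p-values are from this fit unless named otherwise; the fit was tested on simulated data. Promoters were aligned with Biopython 1.88. The members, lists and tests were chosen with earlier results of these data known. Named were all Cyp3a probe sets, the 3 profiles nearest to each, listed genes past the threshold, up to 4 further per list with the smallest p, and Nr1i2, Nr1i3, Rxra and Por. The labels give no batch and number the animals of each group 1 to 3 without saying what a number shares. Same-numbered animals did not all deviate together, so no block was used.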

Additional observations from a re-analysis of the deposited data

How the results depend on the processing

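No Cyp3a probe set passed under any of the 15 alternatives (no filter, a filter at the 70th percentile, quantile normalization, median centring, a pseudocount of 16, eBayes without trend or robust, array weights, a replicate block, and each array left out). Cyp3a18 kept its direction in all 15. Median centring turned Cyp3a2 to 0.011, Cyp3a23-3a1 to 6.2e-05 and the listed gene Ncor1 to 0.0515 (log2). With arrays left out in turn, Cyp3a9 ranged from -0.41 to 0.47, Por from -0.31 to 0.34, Ncor1 from -0.19 to 0.00626 and Nr1i2 from -0.00474 to 0.21. The pair values ranged from -0.14 to 0.0895 for Cyp3a23-3a1 minus Cyp3a2, -0.0442 to 0.14 for Cyp3a23-3a1 minus Cyp3a18, -0.80 to 0.35 for Cyp3a23-3a1 minus Cyp3a9, -0.13 to 0.16 for Cyp3a2 minus Cyp3a18, -0.66 to 0.28 for Cyp3a2 minus Cyp3a9 and -0.76 to 0.23 for Cyp3a18 minus Cyp3a9. The causes were not tested. The count of called probe sets, 27, was 70 with median centring (65 higher and 5 lower, against 21 and 6), 44 with robust eBayes, 3 without a trend and 5 to 28 with arrays left out. Listed genes called higher were 3 to 8 with arrays left out and 2 without a trend. With a replicate block 15 probe sets passed, 0 of them Cyp3a, and Ephx1 was lost. Deviations of same-numbered animals correlated at -0.10, 0.10 and -0.06 for numbers 1, 2 and 3, so the numbers were not taken as pairs. Other probe sets of the Cyp3a genes could not be tried, since each gene had 1. The 3 arrays a group limit what could be detected.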
